A study of Mus musculus with 6 samples.

Results

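The genes described are 8 that serve antigen presentation on major histocompatibility complex (MHC) class II or mark Langerhans cells, and they were taken as every non-control probe whose transcript accession belongs to H2-Aa, H2-Ab1, H2-Eb1, H2-DMa, H2-DMb1, Cd74, Ciita or Cd207. Of the 55681 probes on each array, 9 met this rule: 2 for H2-Ab1 and 1 for each of the other 7 genes. All 9 were well above background on all 6 arrays and entered the test. RNA came from tongue of mice of a C57Bl6 background that all carried a doxycycline-inducible Dek transgene (iDek), which the labels describe as both ubiquitous and squamous cell-specific. The 3 mice of the DOX group had received doxycycline (DOX) for 2 weeks, and the 3 mice of the no DOX group were untreated. Dek is a chromatin protein, and such transgenes are turned on or off by feeding the antibiotic DOX. Mice lacking the transgene but given DOX were not analysed here, so the effect of DOX and that of the transgene cannot be told apart. The labels used here give no age, sex or promoter, and the carcinogen named in the title of the series appears in no sample label.

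The single Dek probe was at 2.41, 2.41 and 2.27 in DOX tongues, against 2.30, 2.10 and 2.20 in no DOX tongues, in units of log2 signal after each array's 75th percentile was subtracted (normalised log2 signal). With an adjusted p of 0.456 (limma), its log2 difference of 0.17 ± 0.11 (SE) missed the threshold. The sources used here do not say which part of the transcript the probe reads, so the labels could not be checked with it. All 10 tongue keratinocyte genes and all 8 skeletal muscle genes on the lists used were measured well enough to be tested. So were all 10 genes of a general leukocyte list, so being tested does not by itself mark the tissue. No spot was saturated, and 56.0% to 58.3% of probes per array were well above background. All 6 arrays shared 1 slide and 1 scan. By position, DOX replicate 1 shared row 1 with the 3 no DOX arrays, while row 2 held DOX replicates 2 and 3.

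MHC class II molecules carry peptides from engulfed material to the cell surface, where CD4 T cells read them. Dendritic cells, macrophages and B cells make them at rest, and Langerhans cells are the resident class II-bearing cells of stratified epithelium such as that covering the tongue. An alpha and a beta chain are assembled with the invariant chain Cd74, whose remnant in the binding groove is exchanged for peptide with the help of the H2-DM dimer. Ciita, the class II transactivator, switches on the genes of this pathway, and Cd207 encodes langerin, the lectin that forms Birbeck granules in Langerhans cells. C57BL/6 mice carry a defective H2-Ea gene, so the chain made from H2-Eb1 lacks its partner in this strain.

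None of the 8 genes differed between DOX and no DOX tongues beyond the spread between mice. At an adjusted p under 0.05, 0 of the 8 rose and 0 fell (limma with Benjamini-Hochberg adjustment over all tested probes), where 0.404% of the 26256 genes and unnamed probes tested passed in either direction. None had an unadjusted p under 0.05, against 18.6% of everything tested (9.58% with a lower DOX mean), and the smallest p among the members was 0.251, for H2-DMb1. The DOX mean was lower for 6 of the 8 and higher for 2, and 51% of everything tested was lower. The median log2 change of the 8 was -0.09, beside -0.01 for everything tested. The DOX and no DOX values overlapped for all 8, whereas 25.3% of everything tested had groups that did not overlap (12.6% with DOX lower and 12.7% with DOX higher). The pattern that these genes did share lay between individual mice: 7 of the 8 had their highest value in DOX replicate 1.

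The chains of the classical class II molecule came first. H2-Aa encodes the alpha chain, and its probe A_52_P343306 was at 2.49, 1.93 and 1.62 in DOX tongues and at 2.14, 2.02 and 2.10 in no DOX tongues (normalised log2 signal, replicates 1 to 3). The DOX mean of 2.01 ± 0.44 (SD, n = 3) stood against 2.09 ± 0.06 (SD, n = 3) without DOX. Both the highest and the lowest H2-Aa value belonged to DOX mice, and the no DOX values lay between them. The log2 difference was -0.08 ± 0.22 (SE; limma adjusted p = 0.895), and the fold change had a 95% interval of 0.659 to 1.36.

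H2-Ab1 encodes the beta chain that pairs with it. Its brighter probe, A_55_P1962747, was at 6.21, 5.47 and 5.30 in DOX tongues and at 5.86, 5.29 and 5.86 in no DOX tongues. The log2 difference was -0.01 ± 0.28 (SE; limma adjusted p = 0.988), with an interval for the fold change from 0.624 to 1.57. Here no DOX replicate 2 was as low as DOX replicate 3, and DOX replicate 1 lay above every no DOX mouse. The other probe, A_55_P2146560, gave 5.94, 5.18 and 4.98 in DOX tongues and 5.57, 4.94 and 5.59 in no DOX tongues. Both probes followed the same order of mice closely (Pearson r = 0.999 over the 6 arrays), and the dimmer one had a log2 difference of 0.0013 ± 0.30 (SE).

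H2-Eb1, the beta chain of the second class II molecule, was at 5.52, 4.82 and 4.73 in DOX tongues and at 5.28, 4.13 and 5.27 in no DOX tongues (probe A_55_P2156731). Its lowest value was that of no DOX replicate 2, and its values spanned a 2.63-fold range over the 6 mice. The log2 difference of 0.13 ± 0.37 (SE) did not pass (limma adjusted p = 0.891), and its fold change lay between 0.594 and 2.02. It was the only member whose spread was larger without DOX (SD 0.43 with DOX and 0.66 without).

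**Figure D1:**
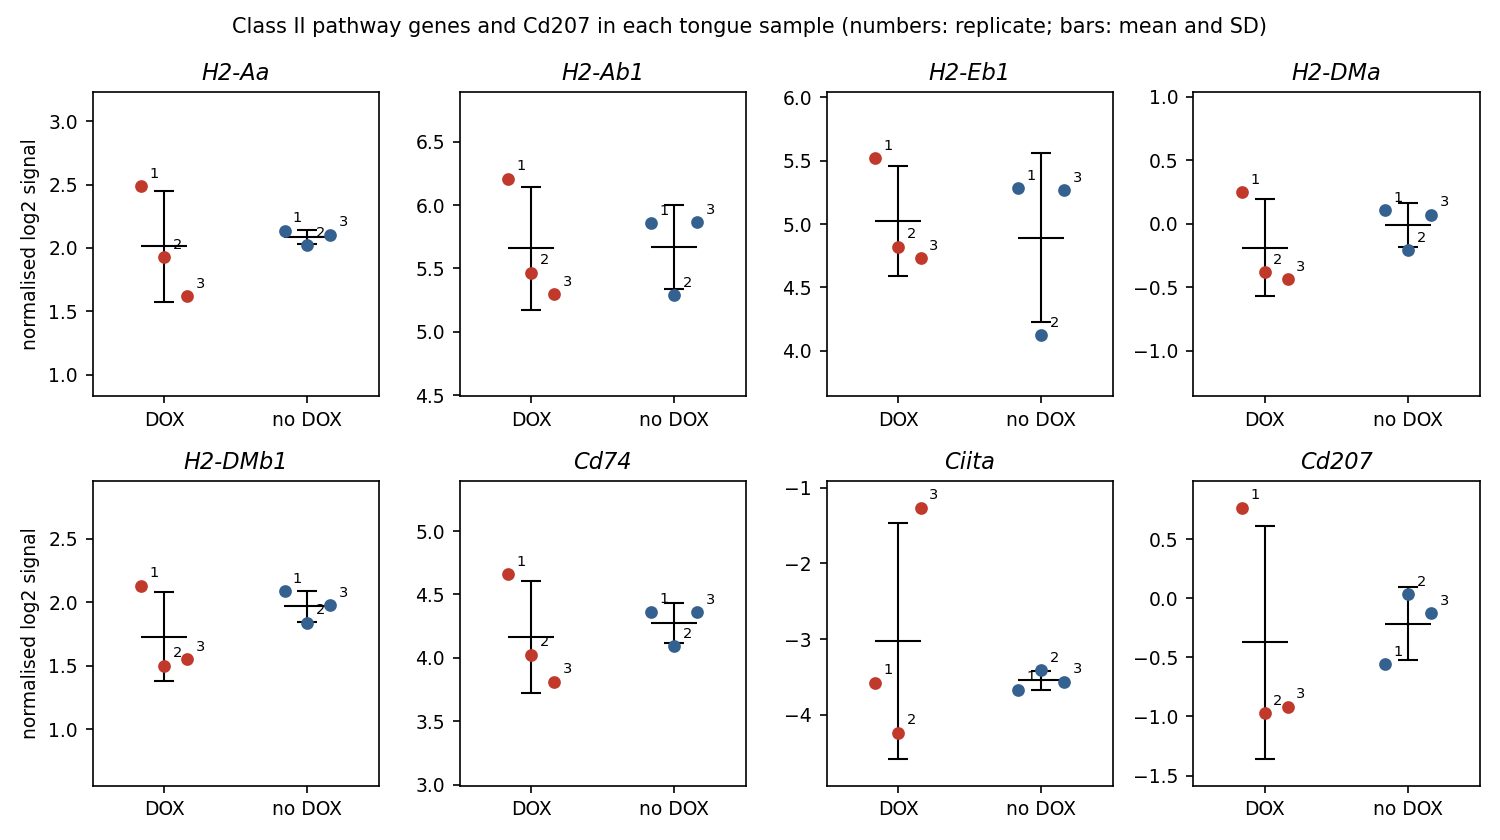
Normalised log2 signal (log2 processed signal minus the array's 75th percentile) of the 8 genes, with 1 point per tongue sample labelled by replicate number, DOX left and no DOX right; bars give the group mean and SD (n = 3), and each panel has its own vertical range. DOX replicate 1 holds the highest point in every panel but that of Ciita, where DOX replicate 3 does, and the groups overlap in all 8.

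Class II promoters are known for an X box, bound by the RFX complex, followed by a Y box, bound by NF-Y, and Ciita acts through the factors assembled there. The 150 bases before the annotated start of H2-Aa, H2-Eb1 and H2-DMb1 in the RefSeq promoter table (GRCm38.p6) are shown, beside those of Cd207. Whether these boxes have a part in the variation that the genes shared between mice was not tested. Capitals mark the letters ATTGG, the core of the Y box, and GCAAC, the core of the X box, on either strand, where CCAAT and GTTGC are the same letters on the other strand. Each is printed 5′ to 3′ on the gene's own strand. H2-Aa lies on the minus strand at chr17:34287824-34287973, H2-Eb1 on the plus strand at chr17:34305717-34305866, H2-DMb1 on the plus strand at chr17:34153041-34153190 and Cd207 on the minus strand at chr6:83677858-83678007.
H2-Aa: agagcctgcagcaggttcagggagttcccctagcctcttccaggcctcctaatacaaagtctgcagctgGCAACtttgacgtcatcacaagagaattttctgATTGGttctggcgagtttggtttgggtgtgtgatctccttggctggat
H2-Eb1: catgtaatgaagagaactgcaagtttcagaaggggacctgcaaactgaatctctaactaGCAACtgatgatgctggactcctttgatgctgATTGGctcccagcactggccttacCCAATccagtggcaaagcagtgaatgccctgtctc
H2-DMb1: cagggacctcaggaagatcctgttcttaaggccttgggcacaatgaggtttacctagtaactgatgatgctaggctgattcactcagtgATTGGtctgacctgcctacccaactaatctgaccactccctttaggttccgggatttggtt
Cd207: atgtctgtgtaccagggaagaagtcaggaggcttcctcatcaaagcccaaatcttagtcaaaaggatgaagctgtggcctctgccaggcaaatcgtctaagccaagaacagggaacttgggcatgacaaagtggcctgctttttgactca
In H2-Aa the X box letters began 81 bases before the start and the Y box letters 48 bases before it, 33 bases further on. In H2-Eb1 they began 91 and 59 bases before the start, 32 bases apart, and a further Y box match lay on the other strand 35 bases before the start. H2-DMb1 held the Y box letters, 61 bases before the start, and Cd207 held neither in the 250 bases before it. Only exact letters were searched, so a variant box is not marked. Upstream of its Y box letters, H2-DMb1 has gtaactgatgatgct, which differs from GCAACtgatgatgct in H2-Eb1 by a t in place of the c. The lack of an exact match is therefore not the lack of an X box. H2-DMa, whose sequences are not printed, has 2 starts in the table: 1 had the X box letters alone, on the other strand, and the other the Y box letters alone. In all, 5 of the 8 genes are covered, without H2-Ab1, Cd74 and Ciita. Of the 32851 promoters in the table, 33.8% held the Y box letters and 29.9% the X box letters within 250 bases, so each alone is common. Both on 1 strand, with first bases 30 to 35 apart, occurred in 0.237%, a spacing chosen after the matches in H2-Aa and H2-Eb1 were seen. A match describes the letters and not binding.

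The peptide-loading genes followed the chains. Cd74 (probe A_51_P284608) was at 4.66, 4.03 and 3.81 in DOX tongues, against 4.37, 4.09 and 4.36 in no DOX tongues. As for H2-Aa, DOX replicate 1 was highest and DOX replicate 3 lowest, with the no DOX mice between. The log2 difference of -0.11 ± 0.23 (SE) did not pass (limma adjusted p = 0.851), and the fold change lay between 0.635 and 1.36.

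H2-DMa, the alpha chain of the exchange factor, was at 0.25, -0.38 and -0.44 in DOX tongues and at 0.11, -0.21 and 0.07 in no DOX tongues (probe A_51_P473734). Its log2 difference was -0.18 ± 0.21 (SE; limma adjusted p = 0.704). H2-DMb1, a beta chain of the same dimer, was at 2.13, 1.50 and 1.55 in DOX tongues and at 2.09, 1.84 and 1.98 in no DOX tongues (probe A_51_P278868). In both genes DOX replicates 2 and 3 lay below every no DOX mouse and DOX replicate 1 lay above them. For H2-DMb1 this gave a log2 difference of -0.24 ± 0.19 (SE; limma adjusted p = 0.551), with a fold change between 0.618 and 1.16. H2-DMb2, a close relative of H2-DMb1, was above background to that degree on 0 arrays; how far its transcript reaches the H2-DMb1 probe was not tested.

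The transactivator gene Ciita was the exception. Its only probe, A_55_P2179074, was at -3.57, -4.24 and -1.26 in DOX tongues and at -3.67, -3.41 and -3.56 in no DOX tongues. The signal in DOX replicate 3 was 4.42-fold above the next highest array, while the other 5 values lay between -4.24 and -3.41. With the normexp background correction the gap was smaller: that array was at -0.94, the other DOX arrays at -1.90 and -2.04 and the no DOX arrays between -1.99 and -1.88, and the log2 difference was 0.29 ± 0.27 (SE; limma adjusted p = 0.624). Ciita was a dim probe: its processed signal was 20.8, 13.3 and 108.1 with DOX, against 20.8, 23.2 and 20.9 without. The value of DOX replicate 3 comes from 1 spot, which the scanner software did not mark as an outlier, with a median signal of 134 over a local background of 21. The log2 difference was 0.52 ± 0.71 (SE; limma adjusted p = 0.754), and without DOX replicate 3 it was -0.36 ± 0.22 (SE; limma adjusted p = 0.417). The same array held the lowest value of H2-Aa, H2-DMa and Cd74. With the high signal resting on 1 dim spot, a relation between Ciita and the class II genes was not tested.

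Cd207 varied most between mice after Ciita. It was at 0.77, -0.97 and -0.92 in DOX tongues and at -0.56, 0.03 and -0.12 in no DOX tongues (probe A_51_P110381). DOX replicate 1 was 1.66-fold above the next highest array, and the other DOX mice were the lowest of all 6. The group means were -0.37 ± 0.99 with DOX and -0.22 ± 0.31 without (SD, n = 3 each), and the log2 difference of -0.16 ± 0.47 (SE) did not pass (limma adjusted p = 0.899). Its interval, a fold change of 0.408 to 1.97, is wide. In tissue RNA, fewer cells of a type and less RNA per cell cannot be told apart.

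**Figure D2:**
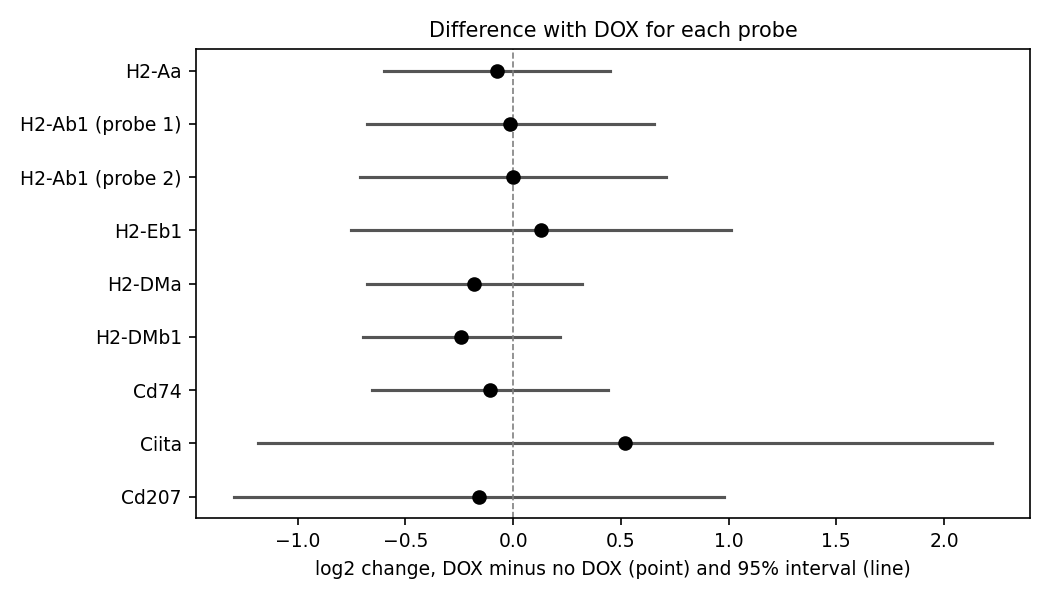
Log2 change (DOX minus no DOX) of each of the 9 probes on the horizontal axis, with its 95% interval from limma as a line; the dashed line marks no difference. Every interval includes 0, and that of Ciita, from -1.18 to 2.22, is the widest.

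A single mouse set much of the spread. DOX replicate 1 had the highest value of 7 of the 8 genes, against 18.2% of everything tested with its highest value there, and DOX replicates 2 and 3 had the lowest value of 3 genes each. Averaged over the 7 genes without Ciita, the deviation from each gene's 6-array mean was 0.53, -0.28 and -0.38 in DOX tongues and 0.13, -0.16 and 0.17 in no DOX tongues. The SD was larger with DOX for 7 of the 8 genes, and for 56.6% of everything tested. DOX replicate 1 was the only DOX array in row 1 of the slide, and the part of array position in this difference was not tested. With the slide row as a block, an alternative added after the data were seen, the DOX difference rests on DOX replicate 1 alone and the median of the 8 log2 changes was 0.39. Without DOX replicate 1 the median was -0.33, 7 of the 8 changes were negative and 3 had an unadjusted p under 0.05, as did 13.8% of everything tested in that fit. They were led by Cd207 at -0.73 ± 0.20 (SE), and none passed after adjustment (smallest adjusted p = 0.256, limma).

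The 6 class II genes other than Ciita moved together across mice. Over the 6 arrays their 15 pairs had Pearson r between 0.59 and 0.97, with a median of 0.90, and Spearman rho had a median of 0.83. The closest pair was H2-DMa and Cd74 (r = 0.97), and the loosest was H2-Eb1 and H2-DMb1 (r = 0.59). After each group's mean was subtracted the median r was 0.92. When the 2 arrays farthest from the median of the 7-gene profile, DOX replicates 1 and 3, were left out, it was 0.90. These values describe 6 arrays that share 1 slide, scan and scaling.

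Cd207 followed the 6 less closely, with r between 0.31 and 0.85 and a median of 0.76. Without the same 2 arrays its median r was 0.35, so its likeness to the class II genes rests largely on them. Ciita had a negative r with each of the 6, from -0.63 to -0.23. Without the 2 arrays, 1 of which holds its high signal, the median r of Ciita with the 6 was 0.53.

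**Figure D3:**
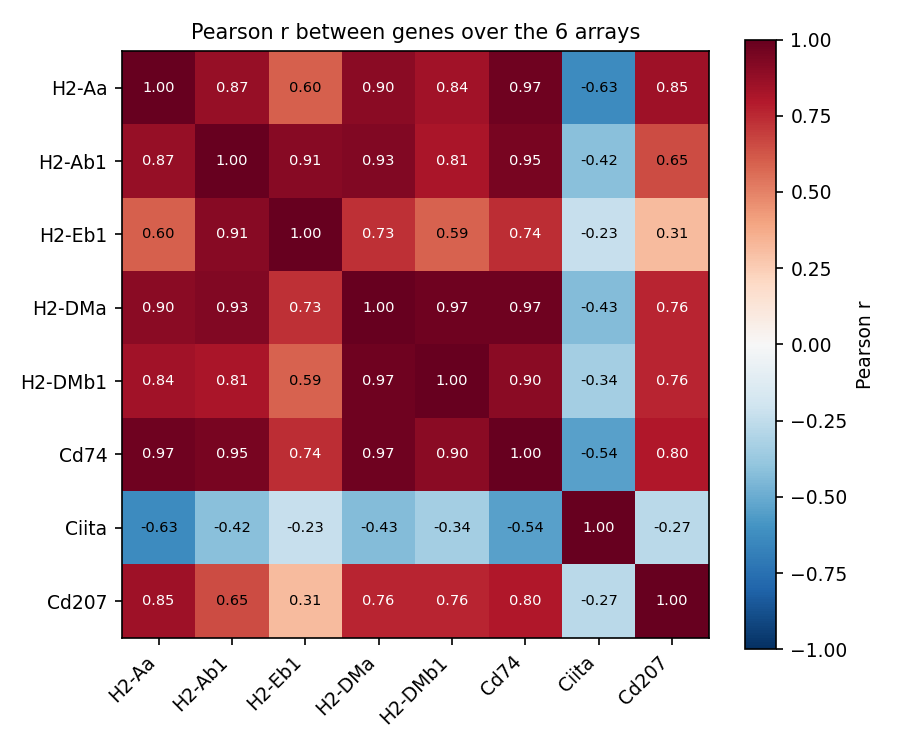
Pearson r of normalised log2 signal over the 6 arrays for each pair of the 8 genes (red positive, blue negative, both axes list the genes). The 6 class II genes form a positive block from 0.59 to 0.97, Cd207 joins it more loosely, and Ciita is negative with all of them.

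Genes outside the list were ranked by Pearson r with the mean of the 8 members over the 6 arrays, among 13955 named genes well above background on every array. The 8 closest were Tirap (r = 0.991), Itgax (0.984), Gbp4 (0.982), Rrnad1 (0.980), Clec2e (0.979), Ucn2 (0.974), B4galt1 (0.972) and Fam126b (0.972). Itgax encodes CD11c, an integrin of dendritic cells, and Tirap an adaptor of Toll-like receptors. Itgax was at 0.35, -0.62 and -0.40 in DOX tongues and at -0.10, -0.32 and -0.09 in no DOX tongues. The ranking picks genes that share the members' order of mice. That DOX replicate 1 was highest for Itgax and the other genes named therefore follows from the choice. An r above 0.9 was reached by 0.552% of the genes compared. With 6 arrays and 13955 genes compared, values this high can also arise between unrelated genes, so the ranking alone marks no relation. With Ciita left out of the profile, a choice made after its values were seen, a different 8 came first: Zc3h13 (0.991), the neutrophil chemokine gene Cxcl1 (0.989), the Src family kinase gene Fgr (0.980), Scimp, an adaptor for class II signalling (0.979), Hlx (0.979), Srsf2 (0.974), Ankk1 (0.974) and Mab21l3 (0.973). Itgax had r = 0.945 with this 7-gene profile.

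Of 12 further class II and loading genes, 9 were tested, 3 with a higher and 6 with a lower DOX mean, and 0 passed (median log2 change -0.06). Of 3 listed proteases that cut the invariant chain, Ctsl and Ctss had a higher DOX mean and legumain (Lgmn) a lower one (log2 -0.12 ± 0.18, SE; limma adjusted p = 0.784). Cathepsin L (Ctsl) was at 5.19, 5.20 and 5.36 in DOX tongues, against 4.88, 4.83 and 4.77 in no DOX tongues. Cathepsin S (Ctss) was at 2.74, 2.74 and 2.47 with DOX and at 2.35, 2.08 and 2.38 without. For both, the groups did not overlap, which 25.3% of everything tested also showed, and neither passed (log2 0.43 ± 0.10 and 0.38 ± 0.14, SE; limma adjusted p = 0.118 and 0.217). Cd83, which stabilises surface class II on dendritic cells, had the next smallest p, with a log2 difference of -0.37 ± 0.19 (SE; limma adjusted p = 0.354). H2-Eb2 and H2-DMb2 were too dim to be tested, and H2-Ea was not analysed here.

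Among 18 genes for factors of the class II promoter and of Ciita induction, 16 were tested, 8 higher and 8 lower, and 0 passed (median -0.04). Nfya, a subunit of the Y box factor NF-Y, was at -0.54, -0.78 and -0.61 in DOX tongues and at -1.27, -1.28 and -1.40 in no DOX tongues. Every DOX value lay above every no DOX value, and the log2 difference of 0.68 ± 0.11 (SE) missed the threshold (limma adjusted p = 0.0719). Groups did not overlap for 5 of the 16 genes tested, beside 25.3% of everything tested. Of the alternatives run, Nfya passed with array weights only (log2 0.68, limma adjusted p = 0.0405). In that setting 484 genes and unnamed probes passed in place of 106. Irf1, an interferon-induced activator of Ciita, was lower in each DOX mouse (log2 -0.56 ± 0.16, SE; limma adjusted p = 0.148), as was the receptor-associated kinase gene Jak2 (-0.27 ± 0.09, adjusted p = 0.210). Rfx5, an X box factor, and Spi1 were too dim to be tested.

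Interferon gamma is the best known inducer of Ciita, and 15 of its targets outside class II were all tested. The DOX mean was higher for 5 and lower for 10, with a median of -0.24, and 0 passed. The immunoproteasome genes Psmb9 (log2 -0.59 ± 0.21, SE) and Psmb8 (-0.39 ± 0.18) and the peptide transporter gene Tap1 (-0.51 ± 0.21) had the smallest p (limma adjusted p = 0.204, 0.313 and 0.259). By mouse, the mean deviation of these targets was 0.18, 0.04 and -0.53 in DOX tongues and 0.36, -0.37 and 0.32 in no DOX tongues. The low values fell in DOX replicate 3 and no DOX replicate 2, which were also low for H2-Ab1 and H2-Eb1. In H2-Aa, H2-DMa, H2-DMb1, Cd74 and Cd207, however, DOX replicate 2 lay below no DOX replicate 2. That DOX mouse was low for the 7 members without Ciita (mean deviation -0.28) and not for these targets (0.04). DOX replicate 1 was highest for those 7 members (0.53), while no DOX replicates 1 and 3 were higher than it for the targets. The high Ciita signal, from 1 dim spot, stood on the array with the lowest mean of interferon gamma targets, and a link was not tested. All 6 class I genes compared, among them H2-K1 and B2m, had lower DOX means (median -0.29), beside 51% of everything tested, and 0 passed. Tap2 had the smallest p (log2 -0.49 ± 0.11, SE, limma adjusted p = 0.106). Groups did not overlap for 3 of the 6, beside 25.3% of everything tested.

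Of 24 Langerhans and dendritic cell genes, Cd207 among them, 20 were tested. The DOX mean was higher for 9 and lower for 11, with a median of -0.06 and 0 passing. The smallest p belonged to Sirpa (log2 -0.34 ± 0.11, SE; limma adjusted p = 0.193), Batf3 (0.34 ± 0.16, adjusted p = 0.308) and Clec10a (0.41 ± 0.19, adjusted p = 0.319). DOX replicate 1 was highest for 9 of the 20, and the mean deviation was 0.31, -0.17 and -0.16 in DOX tongues and 0.03, 0.03 and -0.04 in no DOX tongues. The 20 did not move alike. Their Pearson r with the mean of the 7 members without Ciita ran from -0.96 (Siglech) to 0.94 (Itgax), with a median of 0.44. The list is therefore no measure of the number of these cells. The markers of type 1 conventional dendritic cells Xcr1 and Clec9a were too dim to be tested.

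Other cells that can carry class II were measured beside these genes. Of 15 macrophage genes 14 were tested, 11 with a higher DOX mean (median 0.27), and 0 passed. The lysozyme gene Lyz2, with a log2 difference of 1.03 ± 0.17 (SE; limma adjusted p = 0.0704), passed with array weights (adjusted p = 0.0381) and with trend and robust settings (0.0492). The mean deviation of the list was highest in DOX replicate 2 (0.34), a mouse with low class II signals. The summed linear signal of the macrophage list, relative to each array's 75th percentile, ran from 38.0 to 47.8 with DOX and from 38.7 to 41.5 without. This sum rests largely on the brightest gene, Itgam (log2 difference -0.14), and is no measure of macrophage number. Of 10 B cell genes 5 were tested, all 5 with a lower DOX mean (median -0.29), and 0 passed. Groups did not overlap for 2 of the 5, beside 25.3% of everything tested. The B cell genes Ms4a1, Cd79a, Pax5 and Blk were not well above background on any array. The B cell sum ran from 1.62 to 1.92 with DOX and from 2.07 to 2.19 without. It rests mostly on the brightest of the 5, Cd22 and Cd37 (log2 difference -0.29 and -0.03), and is no measure of B cell number.

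The 10 genes of the general leukocyte list gave a median of 0.01 with 0 passing, and the DOX mean was higher for 5 and lower for 5. Not every leukocyte makes all of the 10, such as Tyrobp and Fcer1g. The mean deviation of the 10 was also highest in DOX replicate 1 (0.22) and lowest in DOX replicate 3 (-0.27). Their sum ran from 14.9 to 22.9 with DOX and from 16.8 to 19.7 without. The part of leukocyte number in the class II values was not tested. Of 13 T cell genes 12 were tested, and Cd8a, at least 1.72-fold lower with DOX, and Cd247, at least 1.24-fold lower, passed (limma adjusted p = 0.0241 and 0.0166). Neither was well above background on any DOX array, so both entered the test only through the no DOX group. Among the 9 T cell genes well above background on all 6 arrays, 0 passed (smallest limma adjusted p = 0.192). Each bound takes the no DOX mean over the mean, across DOX arrays, of the higher of 2 signals: the dimmest one that was well above background, and that of the probe itself. With 1 array left out, Cd8a passed only without DOX replicate 1 and Cd247 only without DOX replicate 2. The keratinocyte and muscle lists had medians of -0.27 and 0.15, with 0 passing in either.

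**Figure D4:**
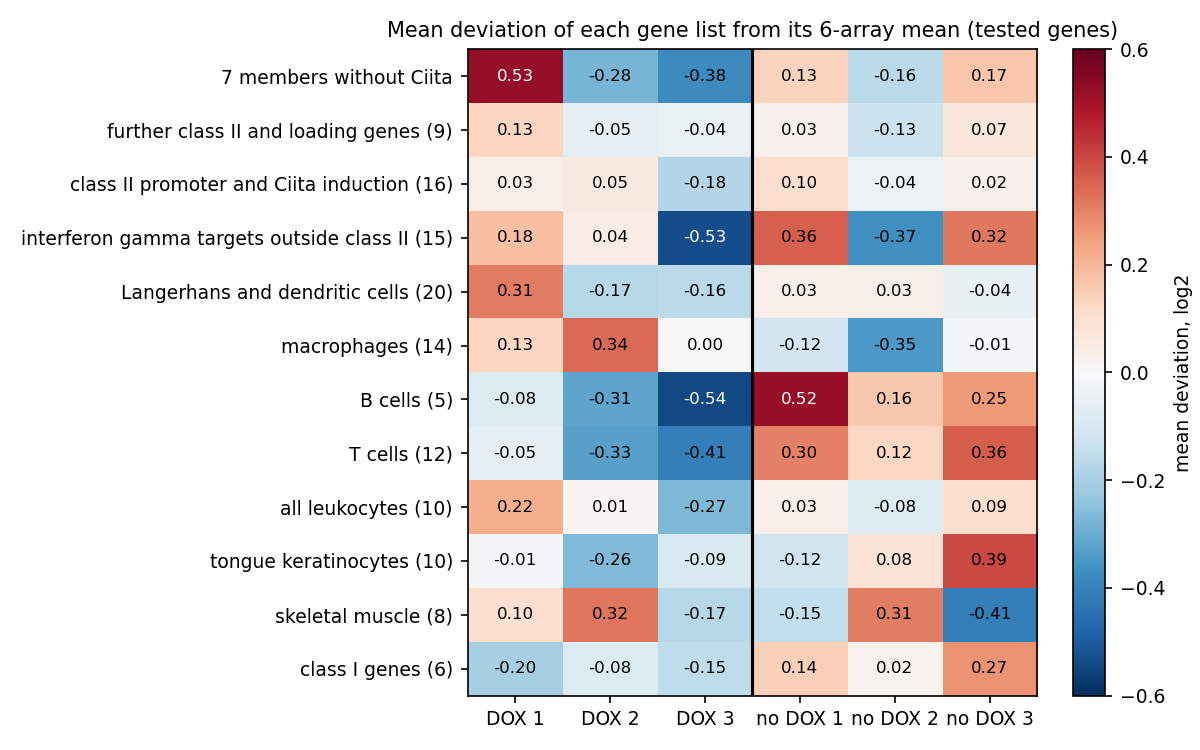
Mean deviation (log2) of the tested genes of each list from their own 6-array means, for the 3 DOX arrays left of the line and the 3 no DOX arrays right of it, with the number of tested genes in brackets. The 7 members without Ciita are highest in DOX replicate 1 (0.53), as are the dendritic cell list (0.31) and the leukocyte list (0.22), while the macrophage list peaks in DOX replicate 2 (0.34).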

How the data were processed

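RNA from tongue of 6 mice was labelled with Cy3 and hybridised to single-colour Agilent mouse arrays, per the labels' protocols. Per the file headers, the deposited intensity of each spot is linear and comes from Agilent Feature Extraction 11.5.1.1, which subtracted the background to give the processed signal. The deposited value table equals that signal times 1 factor per array (3.70 to 3.99) and has column medians of 90.01, 97.5 and 93.7 for DOX and 102.5, 94.2 and 92.7 for no DOX; the sources used here do not state how the factors were set. Groups come from the treatment label and replicate numbers from the titles.

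From the deposited intensity, log2 processed signals were taken, the 146 to 195 outlier spots per array and all control spots dropped, spots of a probe averaged and the 75th percentile of the array subtracted. Accessions were named through RefSeq (GRCm38.p6): 28331 probes had 1 symbol and 27350 none. A probe was tested if every array of 1 or both groups had it well above background, and 30934 were, with limma 3.58.1 in R 4.3.3 (two-sided; Benjamini-Hochberg over all of them; threshold 0.05); the brightest probe stood for a gene. Intervals are 95% intervals from that fit. The number of arrays limits the precision. On simulated arrays with the spreads of these 30934 probes, the log2 changes recovered were 0 of 50 at a size of 0.5, 29 of 50 at 1 and 47 of 50 at 2, beside 7 false calls. The median SD of everything tested was 0.18 with DOX and 0.16 without. For the members the SD with DOX ran from 0.35 (H2-DMb1) to 1.56 (Ciita), so these counts do not give the recovery for them.

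The members, lists and tests were chosen with earlier results of these data known. All 8 members are named with every probe. Other lists give counts, the 3 genes with the smallest p for the class II, promoter, interferon and dendritic cell lists, and the 8 genes most like the members. H2-DMb2, H2-Eb2, H2-Ea, Rfx5, Spi1, Xcr1, Clec9a, Siglech, Lgmn, Lyz2, Itgam, Cd8a, Cd247, Tap2, H2-K1, B2m, Tyrobp, Fcer1g and the B cell genes are not covered by this rule and were picked with their values in view. Normexp was planned on the mean signal and run on the median signal, since the mean is not among the columns used here.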

Additional observations from a re-analysis of the deposited data

How the results depend on the processing

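None of the 8 genes passed under any of the 17 alternatives run, and the smallest adjusted p was 0.200, for Cd207 with the slide row as a block. The median of the 8 log2 changes was 0.39 with the slide row as a block and 0.067 with array weights, and ran from -0.33 to 0.09 when 1 array was left out. Signs of single genes, all short of the threshold, turned with array weights (H2-Aa 0.061, H2-Ab1 0.25, Cd74 0.073 and Cd207 0.061). They also turned with the slide row as a block (H2-Aa 0.40, H2-Ab1 0.54, H2-DMa 0.26, H2-DMb1 0.16, Cd74 0.39, Ciita -0.029 and Cd207 0.98), which rests on DOX replicate 1 alone. With 1 array left out, the log2 change ran from -0.31 to 0.12 for H2-Aa, -0.29 to 0.17 for H2-Ab1, -0.25 to 0.33 for H2-Eb1, -0.36 to 0.069 for Cd74, -0.36 to 1.13 for Ciita and -0.73 to 0.14 for Cd207; H2-DMa and H2-DMb1 stayed negative. No T cell gene passed with normexp (smallest adjusted p 0.120), with dim probes kept in (0.0707), with only probes bright on all 6 arrays (0.192), or with the replicate number (0.0985) or slide row (0.0626) as a block, and Cd247 was lost with trend and robust settings. The T cell median of -0.43 was -0.23 with normexp and -0.071 with the slide row as a block. The limit is the spread between 3 mice a group. The 106 genes and unnamed probes that passed became 246 with normexp, 192 with trend and robust settings, 484 with array weights, 1 with no filter on dim probes and 32 with the slide row as a block. Without DOX replicates 1, 2 and 3 they became 19, 51 and 26, and without no DOX replicates 1, 2 and 3 they became 3, 3 and 23; the cause was not tested. With the replicate number as a block 0 passed (limma, 4732 at an unadjusted p under 0.05, 0 of them members). Same-numbered arrays did not deviate together (correlations of -0.115, -0.0092 and 0.0102), so the numbers were not taken as pairs.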
